A study of Arabidopsis thaliana with 141 samples.

Results

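The jasmonate pathway's MYC transcription factors, their JAM antagonists and 3 output genes were followed through every RNA-seq library of the series. The 9 genes were taken by locus identifier from each count table: MYC2 (AT1G32640), MYC3 (AT5G46760), MYC4 (AT4G17880), JAM1 (AT2G46510), JAM2 (AT1G01260), JAM3 (AT4G16430), VSP1 (AT5G24780), VSP2 (AT5G24770) and TAT3 (AT2G24850). They are 9 of the 32005 loci listed in every file and of the 38009 listed in any file. All 9 were present in all 141 libraries, which form 49 groups in 6 separately analysed sets of Arabidopsis thaliana.

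The first set is a time course of WT seedlings, 7 days old, given 100 nM flg22 and harvested at 5, 10, 15, 30 and 60 min, with water at 0 min as the sole control (2 libraries per time). flg22 is a peptide of bacterial flagellin and pep3 a plant peptide of the danger-signal family, and each is perceived at the cell surface. Sets B1 to B4 hold 7-day-old seedlings of impk36, impk4 and WT, with 3 libraries per group. Every group of these sets except a WT group given 0.1% DMSO was pretreated for 15 min with 10 uM 3MBiP, a kinase inhibitor, so the stimulated groups and their controls share it. The stimuli were 100 nM pep3, 50 uM methyl jasmonate (MeJA) and 20 uM ABA in B1, 2 nM flg22 and wounding with forceps in B2, 40 W UVB in B3 and 10 mM H2O2 in B4. They acted for 1 h before harvest, and flg22 in B2 also for 30 min according to the sample titles. The treatment description gives 1 h for all stimuli of these sets, so the 30 min groups rest on the titles alone. In B3 and B4 impk36 and impk4 were sampled under the stimulus and not without it, so a response cannot be compared between lines there. The adult set holds shoots of 4-week-old plants: untreated mpk4, impk4 sprayed with 100 uM 3MBiP or with 1% DMSO (mock) and harvested at 3, 6, 12 and 24 h, and untreated impk4 at 0 h. It has no WT, so an effect of 3MBiP on plants without the impk4 construct cannot be told apart from one that acts through it.

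The labels name impk36 and impk4 and do not describe their alleles. Their kinase transcripts set them apart: MPK6 was 277 to 333 CPM in unstimulated impk36 and 57.1 to 59.6 CPM in WT of set B1, and MPK3 was 16.0 to 18.7 CPM in impk36 and 55.8 to 66.3 CPM in WT. MPK4 was 1456 to 1536 CPM in impk4 of that set and 60.9 to 62.5 CPM in WT. In adult shoots MPK4 was 20.8 to 24.9 CPM in mpk4 and 1466 to 1569 CPM in untreated impk4. CPM is a locus's count relative to its library's total, in the usual unit, with totals scaled by the trimmed mean of M-values. Each seedling library came from 8 pooled seedlings, and the labels do not say whether replicates were grown apart, so p-values measure the spread between these libraries, which may be partly technical. In pooled tissue, fewer cells that express a gene and less RNA per cell cannot be told apart.

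Jasmonoyl-isoleucine, the active form of jasmonate, is bound by the receptor COI1 together with a JAZ repressor, and the JAZ protein is then degraded. MYC2, MYC3 and MYC4 are basic helix-loop-helix (bHLH) activators that the JAZ proteins hold inactive. JAM1, JAM2 and JAM3 are related bHLH factors that bind the same G-box-like promoter elements and lower jasmonate outputs. VSP1 and VSP2 encode vegetative storage proteins with phosphatase activity and TAT3 a tyrosine aminotransferase, and these serve as textbook readouts of the MYC branch.

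The members lie on 4 chromosomes of TAIR10.1 (RefSeq): MYC2 at chr1:11798119-11801407, JAM2 at chr1:108946-111699, JAM1 at chr2:19090953-19093373, TAT3 at chr2:10582074-10585216, MYC4 at chr4:9933326-9935685, JAM3 at chr4:9267260-9269178, VSP2 at chr5:8500468-8502224, VSP1 at chr5:8507590-8509201 and MYC3 at chr5:18974022-18976590. JAM2, JAM3 and MYC3 are on the plus strand and the others on the minus strand. VSP1 and VSP2 are tandem neighbours, and their transcripts were 88.1% identical over 1286 aligned bases. Of 1269 stretches of 50 bases in the VSP1 transcript, 5 also occurred in that of VSP2. Sums of the counts of both genes, given below, weigh the more abundant gene more.

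The promoters of the 5 members whose levels moved most are shown, from 250 bases before the annotated start to 50 after it, since the factors studied bind G-box-like hexamers there. Each reads 5′ to 3′ in the direction of the gene, and capitals mark a match to CACGTG (the G-box), CACATG or AACGTG (the T/G-box) on either strand.
MYC2, chr1:11801358-11801657, minus strand: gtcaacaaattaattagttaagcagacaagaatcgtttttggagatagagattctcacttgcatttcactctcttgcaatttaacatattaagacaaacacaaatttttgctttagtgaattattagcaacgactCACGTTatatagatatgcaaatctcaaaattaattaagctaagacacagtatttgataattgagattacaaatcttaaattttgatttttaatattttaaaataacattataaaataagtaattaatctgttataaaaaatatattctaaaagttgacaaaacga
JAM1, chr2:19093324-19093623, minus strand: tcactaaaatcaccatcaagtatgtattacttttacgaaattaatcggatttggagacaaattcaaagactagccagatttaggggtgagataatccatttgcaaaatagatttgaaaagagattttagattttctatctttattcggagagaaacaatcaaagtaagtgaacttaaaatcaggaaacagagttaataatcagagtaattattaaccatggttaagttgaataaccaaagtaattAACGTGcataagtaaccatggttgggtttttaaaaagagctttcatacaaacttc
VSP1, chr5:8509152-8509451, minus strand: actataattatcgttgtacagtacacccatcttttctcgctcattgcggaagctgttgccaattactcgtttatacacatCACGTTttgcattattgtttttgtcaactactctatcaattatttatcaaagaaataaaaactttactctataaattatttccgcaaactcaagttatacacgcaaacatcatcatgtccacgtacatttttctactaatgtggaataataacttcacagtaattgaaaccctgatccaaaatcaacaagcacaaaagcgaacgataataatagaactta
VSP2, chr5:8502175-8502474, minus strand: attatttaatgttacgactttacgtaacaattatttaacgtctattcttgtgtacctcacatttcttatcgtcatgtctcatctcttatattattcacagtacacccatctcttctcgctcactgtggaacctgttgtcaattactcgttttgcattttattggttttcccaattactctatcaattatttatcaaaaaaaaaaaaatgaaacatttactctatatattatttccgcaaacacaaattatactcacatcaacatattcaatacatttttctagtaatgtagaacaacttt
TAT3, chr2:10585167-10585466, minus strand: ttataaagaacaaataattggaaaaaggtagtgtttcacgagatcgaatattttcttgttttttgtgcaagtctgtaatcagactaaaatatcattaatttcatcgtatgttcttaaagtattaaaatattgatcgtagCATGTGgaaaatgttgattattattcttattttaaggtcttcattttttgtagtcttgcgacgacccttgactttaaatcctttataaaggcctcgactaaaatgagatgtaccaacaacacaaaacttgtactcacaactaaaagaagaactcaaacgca
AACGTG or its reverse complement starts at position -115 in MYC2, -5 in JAM1 and -170 in VSP1, counted from the gene start, and CACATG lies on the other strand at -111 in TAT3. The windows of VSP2, MYC3, MYC4, JAM2 and JAM3 hold none of the 3 hexamers. Of 27443 promoter windows of the same length, 7.68% hold CACGTG, 12.9% CACATG, 8.95% AACGTG and 26.4% any of them, so 4 of 9 members is a description of these windows and not a set of binding sites.

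Libraries held 13.9 M to 40.4 M counts on genes, with a median of 23.5 M. Reads set aside as not unique were 5.38 to 42.4% of each library, and the highest share was in replicate 3 of impk36 after pep3. In set B2 these reads were 13.4 to 16.5% in the impk36 libraries, 6.47 to 12.8% in WT and 6.06 to 7.55% in impk4. All impk36 libraries of B2 lay above the others, so line and this trait of the libraries cannot be told apart there. Its part in the impk36 differences of B2 was not tested. MYC2 was counted as 0 in all 42 libraries of set B4 and the adult set, which list 37336 loci, and at 528 counts or more in the other 99, which list 32678. The opposite-strand locus AT1G32630 (chr1:11797330-11801359) covers 98.5% of the exon bases of MYC2, and reads set aside as ambiguous were 2.92 to 4.09% in the 42 libraries and 0.908 to 1.76% in the 99. Of 9605 loci at 10 CPM or more in every one of the 99, 36 were at 0 in all 42. The part of the counting in these zeros was not tested, and no level or fold of MYC2 is given for B4 or the adult set. The part of the overlap in the level of MYC2 in the 99 libraries was not tested either.

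Before a stimulus, MYC3 and JAM3 were the most abundant members per length in WT seedlings of sets B1 to B4, in reads per kilobase of exon scaled to library size (RPKM). In WT seedlings of B1 with 3MBiP alone the means were 18.8 RPKM for JAM3, 16.5 for MYC3, 11.2 for MYC2, 9.04 for MYC4, 7.78 for JAM2, 6.70 for JAM1, 4.08 for VSP1, 0.757 for VSP2 and 0.0643 for TAT3. VSP1 and VSP2 stood apart between sets without a stimulus: VSP1 was 13.3 RPKM in WT of B3 and 2.84 in WT of B2, and VSP2 was 5.0 in B3 and 0.255 in B2. At 0 min of the time course MYC2 led (23.4 RPKM, beside 20.1 for MYC3 and 15.5 for JAM3), and in untreated adult impk4 MYC3 (38.6) and MYC4 (30.6) were above JAM3 (16.5). MYC2 was at 0 in the tables of B4 and the adult set. Tests were therefore made only within a set. 3MBiP against DMSO in WT changed none of the 9 members by edgeR's quasi-likelihood test at an adjusted p under 0.05, where 8.65% of all genes passed. 1 member had an unadjusted p under 0.05, and DESeq2 called 0.

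MeJA raised 7 of the 9 members in WT seedlings within 1 h, where 32.2% of all genes passed the test and 16.1% as higher. MYC2 was 476, 555 and 376 CPM in the 3 MeJA libraries, against 39.9, 36.2 and 34.3 CPM in the 3 with 3MBiP alone. JAM1, an antagonist, was 176, 209.99 and 149 CPM after MeJA and 16.3, 15.4 and 17.0 CPM without it. The groups of both factors were far apart, and their log2 changes were alike at 3.67 ± 0.14 for MYC2 (adjusted p = 9.65e-20) and 3.45 ± 0.14 for JAM1 (adjusted p = 1.27e-19). JAM2 rose by 1.45 ± 0.08 and MYC3 by 0.76 ± 0.07, both on the log2 scale. JAM3 (0.17, adjusted p = 0.0654) and MYC4 (-0.01, adjusted p = 0.963) did not pass.

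All 3 outputs rose, with fitted changes for TAT3 and VSP2 above those of every factor and one for VSP1 within the errors of that of MYC2. TAT3 was 308, 292 and 242 CPM after MeJA, against 0.0907, 0.150 and 0.223 CPM with 3MBiP alone, where it had 2, 3 and 7 counts. VSP2 was 80.6, 85.7 and 60.2 CPM after MeJA and 0.952, 1.35 and 1.15 CPM without it, and VSP1 was 89.2, 81.1 and 65.2 CPM after MeJA and 4.44, 6.83 and 5.09 CPM without it. VSP1 and VSP2 therefore ended at similar CPM from different starting levels. The log2 changes were 10.70 ± 0.38 for TAT3, 6.03 ± 0.21 for VSP2 and 3.86 ± 0.18 for VSP1. The fitted change of TAT3 depends on the few counts without MeJA.

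Most other genes of the pathway rose after MeJA as well. Of 13 JAZ repressor genes 12 rose and 0 fell, with a median log2 change of 5.22 (all genes 0.00), among them JAZ10 (7.93 ± 0.15) and JAZ3 (4.02 ± 0.09). All 12 tested genes of jasmonate synthesis rose (median 4.38), including OPR3, the peroxisomal reductase of the pathway, by 4.96 ± 0.13. All 9 tested genes of jasmonate breakdown rose (median 5.65), with JOX4, a jasmonate oxidase, up by 10.30 ± 0.29. Of other MYC-branch outputs 6 of 6 rose, and of the ERF branch, which ethylene shares, 4 of 6 rose, with ORA59 up by 2.53 ± 0.20. COI1, NINJA, JAR1, TPL and MED25, the perception and co-regulator list, gave 1 higher and 2 lower of 5.

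Wounding raised the same 7 members and lowered MYC4, and 8 of the 9 passed where 53.6% of all genes did, 28.7% as higher. MYC2 was 382, 392 and 373 CPM after wounding, against 31.0, 38.4 and 33.7 CPM in WT with 3MBiP alone (3.48 ± 0.09 on the log2 scale). JAM1 was 139, 154 and 146 CPM after wounding and 15.9, 17.8 and 17.7 CPM without it (3.09 ± 0.12). TAT3 was 196, 179.6 and 189.6 CPM after wounding and 0, 0.492 and 0.275 CPM without it (9.50 ± 0.41). None of these groups overlapped. VSP2 was 18.9, 15.8 and 17.9 CPM after wounding and 0.366, 0.383 and 0.412 CPM without it, and VSP1 was 19.6, 19.8 and 20.2 CPM after wounding and 4.07, 3.28 and 4.05 CPM without it. The log2 changes were 5.47 ± 0.23 for VSP2 and 2.37 ± 0.12 for VSP1. JAM2 (1.32) and MYC3 (0.59) rose too, MYC4 fell (-0.67 ± 0.08) and JAM3 was 0.04 without passing.

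In the wounded seedlings 11 of 13 JAZ genes, 12 of 12 synthesis genes, 9 of 10 breakdown genes and 6 of 6 other MYC-branch outputs rose, and none of them fell. AOC2, an allene oxide cyclase of jasmonate synthesis, rose by 3.76 ± 0.08 and NAC019, a NAC factor downstream of MYC2, by 7.33 ± 0.18. All 3 leaf marker genes fell in the same libraries, and their summed level was 13618 to 14320 CPM after wounding and 19005 to 19183 CPM without it. The part of tissue composition in the members' changes was not tested.

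ABA raised MYC2 without a call in any of the 3 outputs. MYC2 was 100.2, 103 and 92.4 CPM after ABA, against 39.9, 36.2 and 34.3 CPM with 3MBiP alone, and rose by 1.42 ± 0.13 on the log2 scale (adjusted p = 4.19e-10). MYC4 was -0.73 ± 0.12 on that scale, lower, and these were the 2 members that passed, where 30.4% of all genes did. JAM1 was 21.0, 19.0 and 20.2 CPM after ABA and 16.3, 15.4 and 17.0 CPM without it (0.30, adjusted p = 0.118), without overlap, and it passed when WT with and without ABA were fitted alone (adjusted p = 0.00797). VSP1 was 5.18, 3.49 and 6.62 CPM after ABA, VSP2 2.24, 1.04 and 1.92 CPM after ABA and TAT3 0.327, 0.0520 and 0.0505 CPM after ABA. These values overlapped those of the libraries without ABA given above. Between the 2 hormones themselves, MeJA gave higher levels than ABA for 8 members, where 40.0% of all genes passed, 19.2% as higher, with MYC2 higher by 2.25 ± 0.13, JAM1 by 3.15 ± 0.14 and VSP2 by 5.44 ± 0.21. Of the other lists, ABA raised 6 of 13 JAZ genes, 7 of 12 synthesis genes and 4 of 6 MYC-branch outputs, with NAC019 up by 7.51 ± 0.37, and it lowered ORA59 of the ERF branch (-5.77 ± 0.54).

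**Figure D1:**
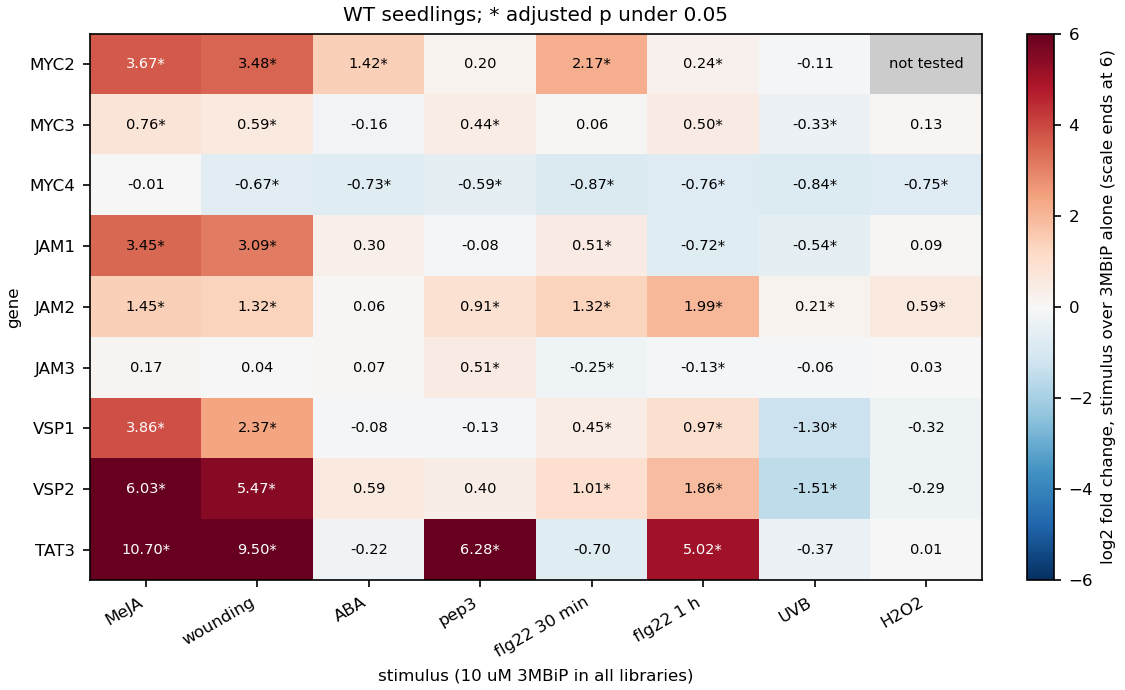
Log2 fold change of the 9 members (rows) in WT seedlings for 8 stimuli (columns), each stimulus over 3MBiP alone in its own set, with an asterisk where the adjusted p was under 0.05. MeJA and wounding fill the MYC2, JAM1, VSP1, VSP2 and TAT3 rows with high values, JAM2 is higher after all stimuli but ABA, and MYC4 is lower after all but MeJA. MYC2 was not counted in set B4.

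After the peptides JAM2 and TAT3 were higher at 1 h, as they were after MeJA and wounding. JAM1, which rose after MeJA and wounding, did not pass as higher at 1 h of either peptide. After pep3, 5 members passed, where 62.5% of all genes did. JAM2 was 40.4, 38.4 and 42.2 CPM with pep3, against 22.0, 19.8 and 22.4 CPM without it (0.91 ± 0.08 on the log2 scale). TAT3 was 8.96, 9.26 and 19.5 CPM with pep3, against 0.0907, 0.150 and 0.223 CPM without it (6.28 ± 0.49), without overlap, and replicate 3 of the pep3 group was the highest. JAM3 (0.51 ± 0.07) and MYC3 (0.44 ± 0.07) rose, and MYC4 fell (-0.59 ± 0.12). MYC2 was 38.3, 34.7 and 53.0 CPM with pep3 (0.20, adjusted p = 0.191) and JAM1 12.1, 13.5 and 19.7 CPM with pep3 (-0.08, adjusted p = 0.650), and in each of them replicate 3 was the highest. Without that library JAM1 passed as lower (-0.35, adjusted p = 0.0381), and without replicate 2 with pep3 MYC2 passed as higher (0.32, adjusted p = 0.0463). VSP1 was 4.40, 5.27 and 5.11 CPM with pep3 and VSP2 0.815, 1.74 and 1.79 CPM with pep3, and neither passed. Of the synthesis genes 9 of 12 rose and 2 fell, and of the JAZ genes 4 rose and 2 fell, with JAZ1 up by 2.89 ± 0.14. The summed leaf markers were 14279 to 15760 CPM with pep3 and 17608 to 18857 CPM without it, and their part in these changes was not tested.

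flg22 at 2 nM changed 7 members at 30 min, where 43.2% of all genes passed, and all 9 at 1 h, where 60.4% did, although JAM3 at 1 h (-0.13, adjusted p = 0.0476) did not pass by DESeq2 (adjusted p = 0.104) or in 5 of 6 fits without 1 library. MYC2 was 166, 153 and 145 CPM at 30 min and 46.1, 36.4 and 39.4 CPM at 1 h, against 31.0, 38.4 and 33.7 CPM without flg22. The groups were apart at 30 min (2.17 ± 0.09 on the log2 scale) and overlapped at 1 h (0.24 ± 0.09), and the later rise did not pass without replicate 1 of the 1 h group (adjusted p = 0.159) or without replicate 1 (adjusted p = 0.123) or 3 (adjusted p = 0.0599) of the control. JAM1 was 26.5, 22.6 and 24.3 CPM at 30 min and 12.2, 10.08 and 9.57 CPM at 1 h, against 15.9, 17.8 and 17.7 CPM without flg22. Its levels at 30 min were all above the control and those at 1 h all below it (0.51 ± 0.14 and -0.72 ± 0.15). JAM2 was 59.7, 52.4 and 53.7 CPM at 30 min and 98.3, 79.0 and 85.7 CPM at 1 h, against 20.4, 23.1 and 22.7 CPM without flg22, and so was higher at the later time (0.67 ± 0.08 for 1 h against 30 min). From 30 min to 1 h, 7 members differed, where 49.8% of all genes did: MYC2 (-1.93) and JAM1 (-1.23) were lower at 1 h, and JAM2, MYC3, VSP1, VSP2 and TAT3 were higher, VSP2 (0.85) with a call lost in 4 of 6 fits without 1 library.

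After 2 nM flg22 the 3 outputs had their highest means at 1 h, and VSP1 and VSP2 already passed as higher at 30 min. TAT3 was 0.199, 0.123 and 0.149 CPM at 30 min and 11.0, 6.14 and 8.59 CPM at 1 h, against 0, 0.492 and 0.275 CPM without flg22 (5.02 ± 0.63 at 1 h). VSP1 was 5.18, 5.84 and 4.87 CPM at 30 min and 7.77, 6.47 and 8.08 CPM at 1 h, against 4.07, 3.28 and 4.05 CPM without flg22 (0.97 ± 0.14 at 1 h). VSP2 was 1.26, 0.369 and 0.781 CPM at 30 min and 1.72, 1.08 and 1.49 CPM at 1 h, against 0.366, 0.383 and 0.412 CPM without flg22 (1.86 ± 0.36 at 1 h). TAT3 at 30 min lay within the range of its control, and each output was above its control in all 3 libraries at 1 h. The rise of VSP2 at 30 min (1.01 ± 0.42, adjusted p = 0.0499) did not pass in 5 of 6 fits without 1 library, and was 0.67 without replicate 1 of the flg22 group (adjusted p = 0.272), and the rise of VSP1 at 30 min (0.45 ± 0.15) did not pass without replicate 2 of the control (adjusted p = 0.0595). Against 1 h of flg22, 1 h after wounding gave higher MYC2 (3.24 ± 0.09), JAM1 (3.81 ± 0.13), TAT3 (4.47 ± 0.25), VSP2 (3.61 ± 0.18), VSP1 (1.41 ± 0.11) and JAM3 (0.18 ± 0.06, but 0.12 with adjusted p = 0.14 without replicate 1 of wounding), and lower JAM2 (-0.67 ± 0.08). These were 7 members, where 48.3% of all genes passed. Leaf markers summed to 12998 to 13519 CPM after 1 h of flg22 and 19005 to 19183 CPM without it, and their part was not tested.

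The time course with 100 nM flg22 followed WT seedlings without 3MBiP over 60 min. MYC2 was 82.3 and 71.8 CPM at 0 min, 84.9 and 83.4 CPM at 5 min, 165 and 181 CPM at 10 min, 207 and 236 CPM at 15 min, 190.0 and 204 CPM at 30 min and 45.9 and 43.0 CPM at 60 min. Its level peaked at 15 min (1.52 ± 0.07 against 0 min on the log2 scale) and at 60 min both libraries were below both at 0 min (-0.79 ± 0.08, adjusted p = 1.27e-08). JAM1 was 25.1 and 24 CPM at 0 min, 28.1 and 29.1 CPM at 5 min, 38.2 and 42.2 CPM at 10 min, 37.5 and 41.8 CPM at 15 min, 27.1 and 26.6 CPM at 30 min and 13.6 and 12.8 CPM at 60 min. JAM1 rose at 10 min (0.71 ± 0.07) and 15 min (0.69 ± 0.07), was 0.13 at 30 min (adjusted p = 0.195) and fell at 60 min (-0.90 ± 0.09). JAM2 was 22.1 and 24 CPM at 0 min, 24.5 and 25.4 CPM at 5 min, 31.2 and 32.7 CPM at 10 min, 34.3 and 31.8 CPM at 15 min, 67.5 and 65.1 CPM at 30 min and 116 and 107 CPM at 60 min. MYC2, JAM1 and JAM2 all first passed at 10 min. JAM2 was the member with the largest rise at 60 min among the 6 factors (2.27 ± 0.07), when MYC2 and JAM1 were below their start. No water control was harvested at 60 min, so flg22 and time since 0 min cannot be told apart in this set. The start of MYC2 was above its 29.7 to 39.9 CPM in unstimulated WT of sets B1 to B3. After 1 h of 2 nM flg22 in B2, MYC2 passed as higher and not as lower.

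The numbers of members that passed against 0 min were 0 at 5 min, 3 at 10 min, 5 at 15 min, 6 at 30 min and 7 at 60 min, where 0.963%, 9.77%, 21.8%, 42.7% and 66.2% of all genes did. The share at 5 min is 201 genes, and was 39 to 443 genes with 1 library left out. At 5 min 1 member had an unadjusted p under 0.05 and DESeq2 called 0. MYC4 fell at 30 min (-0.71 ± 0.09) and was -0.21 ± 0.09 at 60 min, a call that DESeq2 did not make (adjusted p = 0.214) and that no fit without 1 library kept. JAM3 fell at 30 min (-0.22 ± 0.07), a call lost in 3 of 4 such fits, and rose at 60 min (0.24 ± 0.07). MYC3 rose at 60 min (0.44 ± 0.06) after lower values at 15 min (-0.18, a call lost when any 1 of the 4 libraries was left out) and 30 min (-0.31 ± 0.06). TAT3 had 0 and 2 counts at 0 min, 2 and 4 at 5 min, 15 and 5 at 10 min, 12 and 21 at 15 min, 12 and 18 at 30 min, and 318 and 168 at 60 min. Its level at 60 min was 307 times that at 0 min over the summed counts, with a 95% interval of 84.5 to 2540 that covers counting error only. At 30 min the ratio was 16.8 with an interval of 4.25 to 145, and its call did not hold without replicate 1 at 0 min (adjusted p = 0.0799) or replicate 2 at 30 min (adjusted p = 0.0681). The call at 15 min ended likewise without replicate 1 at 0 min (adjusted p = 0.112) or replicate 2 at 15 min (adjusted p = 0.116). VSP1 was 11.6 and 8.5 CPM at 0 min and 6.07 and 7.27 CPM at 60 min, and VSP2 9.0 and 3.87 CPM at 0 min and 4.14 and 6.96 CPM at 60 min. Neither passed at any of the 5 times. VSP1 at 60 min lay below both libraries at 0 min (-0.60, adjusted p = 0.114) and passed as lower with only the groups compared (adjusted p = 0.00283) and without a filter (adjusted p = 1.50e-05), and the 2 libraries at 0 min differed for VSP2 by more than those at 60 min. The JAZ genes were split at 60 min, with 4 higher and 7 lower of 13: JAZ1 rose by 3.58 ± 0.11, and JAZ2 was -1.48 ± 0.08. Of the synthesis genes 9 of 12 rose, with AOC3 up by 3.93 ± 0.10, and of the breakdown genes 6 of 9 fell.

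**Figure D2:**
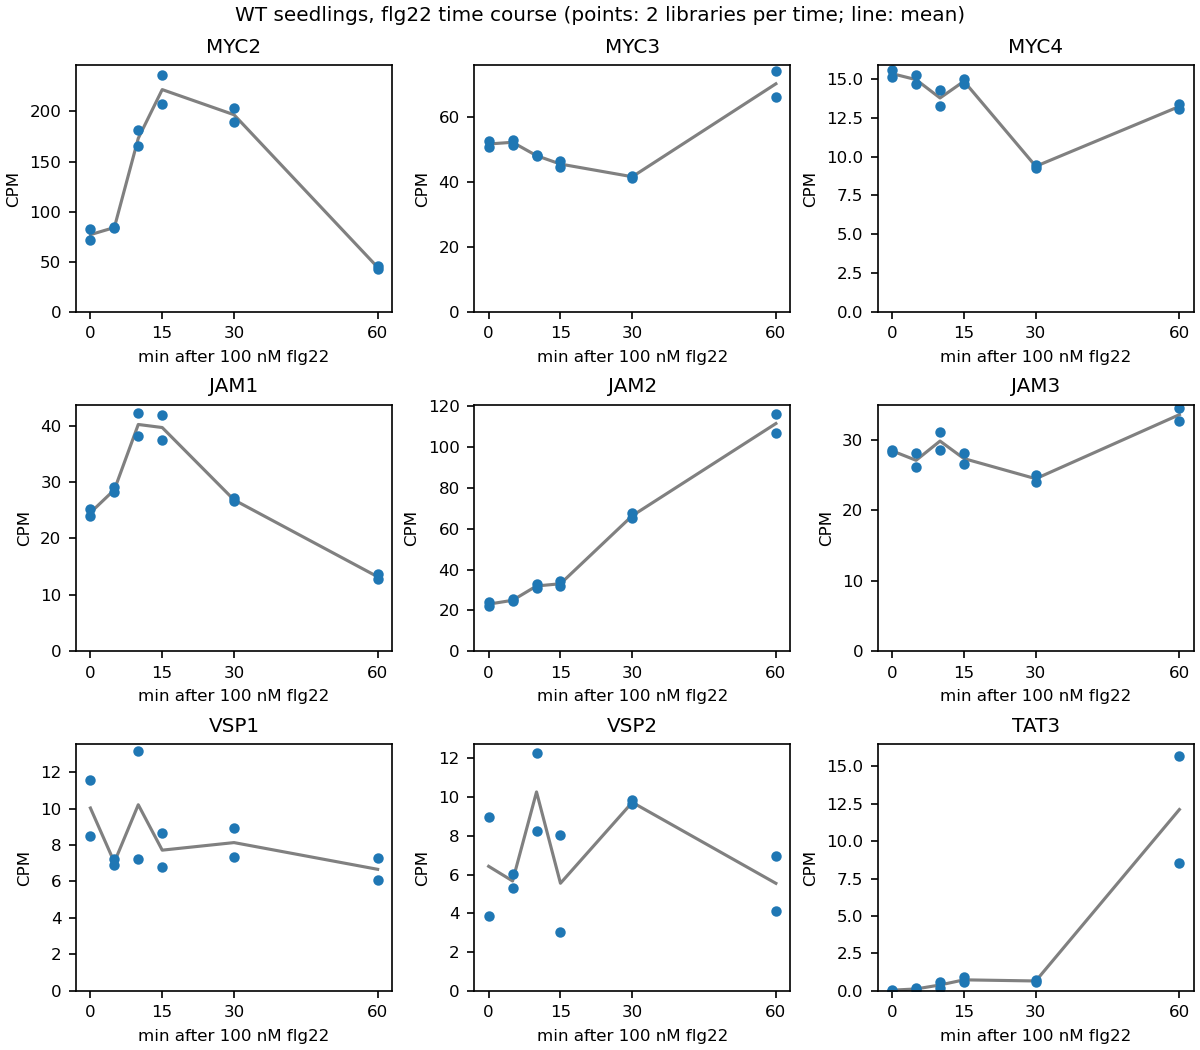
CPM of each member (y axis, linear and starting at 0) against minutes after 100 nM flg22 (x axis) in WT seedlings, with both libraries per time as points and a line through their mean. MYC2 peaks at 15 min and JAM1 at 10 to 15 min, both ending below their start, while JAM2 and TAT3 are highest at 60 min.

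UVB lowered VSP1 and VSP2, and H2O2 was followed by no call in the 3 outputs. After UVB 6 members passed, where 40.8% of all genes did. VSP1 was 7.57, 7.77 and 6.10 CPM after UVB, against 12.2, 14.1 and 27.2 CPM with 3MBiP alone (-1.30 ± 0.29 on the log2 scale). VSP2 was 3.24, 1.31 and 3.30 CPM after UVB, against 6.31, 4.25 and 12.2 CPM without it (-1.51 ± 0.48). All 3 UVB libraries were below all 3 controls for both genes, replicate 3 of the control was the highest for both, and without it VSP2 did not pass (-1.01, adjusted p = 0.0941), nor without replicate 1 (adjusted p = 0.0561) or 2 (adjusted p = 0.0925) of UVB. The summed level of 4 floral markers was 85.9 to 102 CPM after UVB and 152 to 175 CPM without it, and nearly all of it was SEP3, at 82.4 to 100.4 CPM after UVB and 149.6 to 172 CPM without it. SEP3 was the one of the 4 that passed, and its part in these changes was not tested. JAM1 was 13.6, 12.0 and 15.0 CPM after UVB, against 20.3, 16.4 and 22.5 CPM without it (-0.54 ± 0.13), and MYC4 (-0.84 ± 0.10) and MYC3 (-0.33 ± 0.07) fell too. JAM2 was 0.21 ± 0.07 higher, a call lost without replicate 2 of the control (0.14, adjusted p = 0.12) or replicate 2 of UVB (adjusted p = 0.0833). MYC2 was 32.8, 33.3 and 35.6 CPM after UVB and 37.9, 35.5 and 36.03 CPM without it, and TAT3 0.304, 0.532 and 0.0355 CPM after UVB and 0.0596, 0.223 and 0.970 CPM without it, with overlapping groups in both.

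After H2O2 2 of the 8 members with counts passed, where 39.9% of all genes did. JAM2 was 34.7, 32.8 and 30.1 CPM with H2O2, against 21.4, 21.4 and 21.8 CPM without it (0.59 ± 0.08), and MYC4 fell (-0.75 ± 0.11). JAM1 was 22.3, 15.8 and 15.4 CPM with H2O2 and 17.6, 16.5 and 16.1 CPM without it, and TAT3 was 0.462, 0.366 and 1.11 CPM with H2O2 and 1.44, 0.393 and 0.167 CPM without it, with overlapping groups. VSP1 was 3.48, 5.49 and 8.36 CPM with H2O2 and 6.81, 6.85 and 8.19 CPM without it, and VSP2 0.817, 0.916 and 1.2 CPM with H2O2 and 1.05, 1.35 and 1.22 CPM without it. Of the JAZ genes 7 of 11 rose with H2O2, with JAZ1 up by 2.02 ± 0.13. After UVB 2 rose and 4 fell of 10.

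Between lines, JAM2 and TAT3 were lower in impk36 than in WT after 1 h of either peptide. After pep3, 5 members differed between impk36 and WT, where 34.1% of all genes did. JAM2 was 23.7, 25.6 and 25.8 CPM in impk36, against 40.4, 38.4 and 42.2 CPM in WT (-0.69 ± 0.08 on the log2 scale), and TAT3 was 1.2, 1.53 and 1.69 CPM in impk36, against 8.96, 9.26 and 19.5 CPM in WT (-3.15 ± 0.35). Every impk36 library was below every WT library for both genes. MYC2 was 27.2, 29.9 and 28.8 CPM in impk36, against 38.3, 34.7 and 53.0 CPM in WT (-0.57 ± 0.14), and the groups did not overlap, but replicate 3 of WT with pep3 was the highest library. Without it MYC2 (-0.35, adjusted p = 0.0541) and MYC3 (-0.16, adjusted p = 0.105, against -0.24 with it) did not pass. VSP1 was higher in impk36 at 8.5, 7.99 and 8.85 CPM in impk36, against 4.40, 5.27 and 5.11 CPM in WT (0.77 ± 0.21). JAM1 was 11.2, 12.3 and 12.6 CPM in impk36 and 12.1, 13.5 and 19.7 CPM in WT, with overlap, and VSP2 was 2.00, 2.00 and 2.40 CPM in impk36 and 0.815, 1.74 and 1.79 CPM in WT.

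The response to pep3, taken as pep3 over 3MBiP alone within a line, was lower in impk36 than in WT for 3 members by the interaction test, where 16.1% of all genes passed, 8.48% as lower. The difference of responses was -0.79 ± 0.12 for JAM2 (adjusted p = 4.98e-06), -0.62 ± 0.21 for JAM1 (adjusted p = 0.0405) and -0.56 ± 0.19 for MYC2 (adjusted p = 0.0475). Unstimulated JAM1 was 18.3, 19.9 and 20.2 CPM in impk36 and 16.3, 15.4 and 17.0 CPM in WT. Without WT pep3 replicate 3 JAM1 (-0.35, adjusted p = 0.278) and MYC2 (-0.35, adjusted p = 0.237) did not pass. Leaving out 1 library ended the call of JAM1 in 8 of 12 fits and that of MYC2 in 9 of 12. For TAT3 the difference was -3.56 (adjusted p = 0.0758), which DESeq2 called (adjusted p = 4.12e-05). Of 12 synthesis genes 9 were lower in impk36 after pep3 and 2 higher, with AOC1 at -2.27 ± 0.19, and of 13 JAZ genes 5 were lower and 1 higher, with JAZ6 at -2.37 ± 0.14. In the interaction test 9 of the 12 synthesis genes passed as lower and none as higher.

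After flg22 for 1 h, JAM2 was 49.1, 42.1 and 47.1 CPM in impk36, against 98.3, 79.0 and 85.7 CPM in WT (-0.92 ± 0.08), and TAT3 was 0.942, 0.419 and 1.30 CPM in impk36, against 11.0, 6.14 and 8.59 CPM in WT (-3.11 ± 0.51). Neither gene's groups overlapped. MYC3 was lower (-0.31 ± 0.05) and MYC4 higher (0.25 ± 0.08), the call of MYC4 ending without replicate 2 of impk36 (adjusted p = 0.0715) or of WT (adjusted p = 0.0672), so 4 members passed where 47.1% of all genes did. MYC2 was 51.0, 45.4 and 43.8 CPM in impk36 and 46.1, 36.4 and 39.4 CPM in WT, JAM1 12.2, 11.7 and 10.3 CPM in impk36 and 12.2, 10.08 and 9.57 CPM in WT, and VSP1 5.81, 7.61 and 6.35 CPM in impk36 and 7.77, 6.47 and 8.08 CPM in WT. These 3 overlapped and did not pass. The response to 1 h of flg22 was smaller in impk36 for JAM2 (-0.71 ± 0.12), MYC3 (-0.33 ± 0.07) and VSP2 (-1.28 ± 0.45, adjusted p = 0.0471), where 15.1% of all genes passed, 6.86% as lower. TAT3 did not pass in that test of responses. VSP2 started from 1.97, 1.01 and 1.22 CPM in unstimulated impk36 and 0.366, 0.383 and 0.412 CPM in WT, and its interaction call ended when any 1 of 8 of the 12 libraries was left out. With the counts of both VSP genes summed it was -0.49 (adjusted p = 0.0625).

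At 30 min of flg22, 4 members differed between impk36 and WT, where 36% of all genes did. JAM2 was 27.5, 33.6 and 28.1 CPM in impk36, against 59.7, 52.4 and 53.7 CPM in WT (-0.89 ± 0.09), and the difference of its responses was -0.68 ± 0.13, the one member that passed where 6.59% of all genes did, 4.14% as lower. JAM1 was higher in impk36 at 30.5, 35.4 and 30.8 CPM in impk36, against 26.5, 22.6 and 24.3 CPM in WT (0.40 ± 0.13), a call lost without replicate 2 of either line (0.33). MYC2 was 134, 146 and 129.6 CPM in impk36 and 166, 153 and 145 CPM in WT (-0.18, adjusted p = 0.0858). VSP2 was 2.03, 2.09 and 1.91 CPM in impk36, against 1.26, 0.369 and 0.781 CPM in WT (1.34 ± 0.30), and 0.27 with the counts of both VSP genes summed (adjusted p = 0.103). TAT3 was 0.378, 0.157 and 0.354 CPM in impk36 and 0.199, 0.123 and 0.149 CPM in WT, with overlap, and did not pass.

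After wounding the storage protein genes were higher in impk36 than in WT, and MYC2, JAM1, JAM2, MYC3 and TAT3 lower. Of the 9 members 8 passed, where 41.3% of all genes did, 5 lower (22.4% of all genes) and 3 higher (18.9% of all genes) in impk36. MYC2 was 297, 315 and 288 CPM in impk36, against 382, 392 and 373 CPM in WT (-0.35 ± 0.08). JAM1 was 90.8, 102 and 101 CPM in impk36, against 139, 154 and 146 CPM in WT (-0.58 ± 0.11), and TAT3 was 113, 140.0 and 137 CPM in impk36, against 196, 179.6 and 189.6 CPM in WT (-0.54 ± 0.19). All impk36 libraries were below all WT libraries for these 3. DESeq2 did not call TAT3 (adjusted p = 0.208), and its edgeR call ended without replicate 1 of WT (adjusted p = 0.0639) or of impk36 (adjusted p = 0.0904). VSP1 was higher at 29.4, 31.9 and 30.8 CPM in impk36, against 19.6, 19.8 and 20.2 CPM in WT (0.63 ± 0.10), and VSP2 at 27.4, 29.2 and 26.3 CPM in impk36, against 18.9, 15.8 and 17.9 CPM in WT (0.65 ± 0.12), again without overlap. JAM2 (-0.56) and MYC3 (-0.30) were lower and MYC4 (0.32) higher.

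The response to wounding was smaller in impk36 for JAM1 (-0.76 ± 0.17), MYC2 (-0.45 ± 0.12) and MYC3 (-0.32 ± 0.07), where 5.44% of all genes passed, 3.76% as lower. These 3 calls held in every leave-one-out fit. For VSP1 the difference of responses was 0.44 (adjusted p = 0.137), and it passed as higher with only the groups compared (adjusted p = 0.035). For JAM2 the difference was -0.34 (adjusted p = 0.115), and it passed as lower in that fit (adjusted p = 0.0117). For VSP2, which was already higher in unstimulated impk36, the difference was -1.19 (adjusted p = 0.0579). VSP2 passed as lower by DESeq2 (adjusted p = 0.0212), with RLE size factors (0.0488), with only the groups compared (0.0195) and with the replicate block (0.0394). Of the wounded impk36 seedlings' synthesis genes 11 of 12 were lower than in WT, with AOC1 at -0.67 ± 0.08, and so were 8 of 10 breakdown genes, with JOX3 at -1.04 ± 0.11, and 4 of 6 other MYC-branch outputs, with NAC019 at -1.09 ± 0.10. The summed leaf markers were 16179 to 17408 CPM in wounded impk36 and 13618 to 14320 CPM in wounded WT, and their part in these differences was not tested. The part of the higher share of reads that were not unique in impk36 was not tested either.

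MeJA gave no such separation between lines at the adjusted threshold. MYC2 was 419 to 491 CPM in impk36 after MeJA, 384 to 520.5 CPM in impk4 and 376 to 555 CPM in WT, and JAM1 was 156 to 185 CPM in impk36, 153 to 189 CPM in impk4 and 149 to 209.99 CPM in WT. VSP1 was 93.5 to 113 CPM in impk36, 76.4 to 97.9 CPM in impk4 and 65.2 to 89.2 CPM in WT. In impk36 against WT 0 members passed, where 1.8% of all genes did, with 3 at an unadjusted p under 0.05 and 0 by DESeq2. TAT3 was 199, 205 and 198 CPM in impk36, against 308, 292 and 242 CPM in WT (-0.48 ± 0.18, adjusted p = 0.217), so the groups did not overlap, and it passed when only these 2 groups were fitted (adjusted p = 0.00726). VSP2 was 117, 96.0 and 96.0 CPM in impk36, against 80.6, 85.7 and 60.2 CPM in WT (0.45 ± 0.13, adjusted p = 0.0880). In the test of the MeJA response in impk36 minus that in WT 0 members passed, where 0.0141% of all genes did (1 at an unadjusted p under 0.05, 0 by DESeq2). After ABA 0 members differed between impk36 and WT, where 3.98% of all genes did, and 1 had an unadjusted p under 0.05. This was VSP2 (0.94, adjusted p = 0.0535), which DESeq2 called.

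VSP2 was the member that differed between impk36 and WT without a stimulus. It was 3.61, 1.88 and 3.23 CPM in impk36, against 0.952, 1.35 and 1.15 CPM in WT of B1 (1.36 ± 0.29, 1 of 9 members where 3.56% of all genes passed). In B2 it was 1.97, 1.01 and 1.22 CPM in impk36, against 0.366, 0.383 and 0.412 CPM in WT (1.84 ± 0.35, 1 of 9 where 31.4% of all genes passed). The groups did not overlap in either set. With the counts of VSP1 and VSP2 summed, the difference was 0.69 in B1 (adjusted p = 0.0685) and 0.45 in B2 (adjusted p = 0.00958). VSP1 had more counts than VSP2 in each of these libraries, so the sum mostly follows VSP1 and cannot decide the VSP2 call. The B1 call also ended without replicate 3 of impk36 (1.25, adjusted p = 0.0513). In B4, VSP2 after H2O2 was 1.64, 2.61 and 2.24 CPM in impk36, against 0.817, 0.916 and 1.2 CPM in WT (1.13 ± 0.25), and 0.45 with both genes summed (adjusted p = 0.32).

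**Figure D3:**
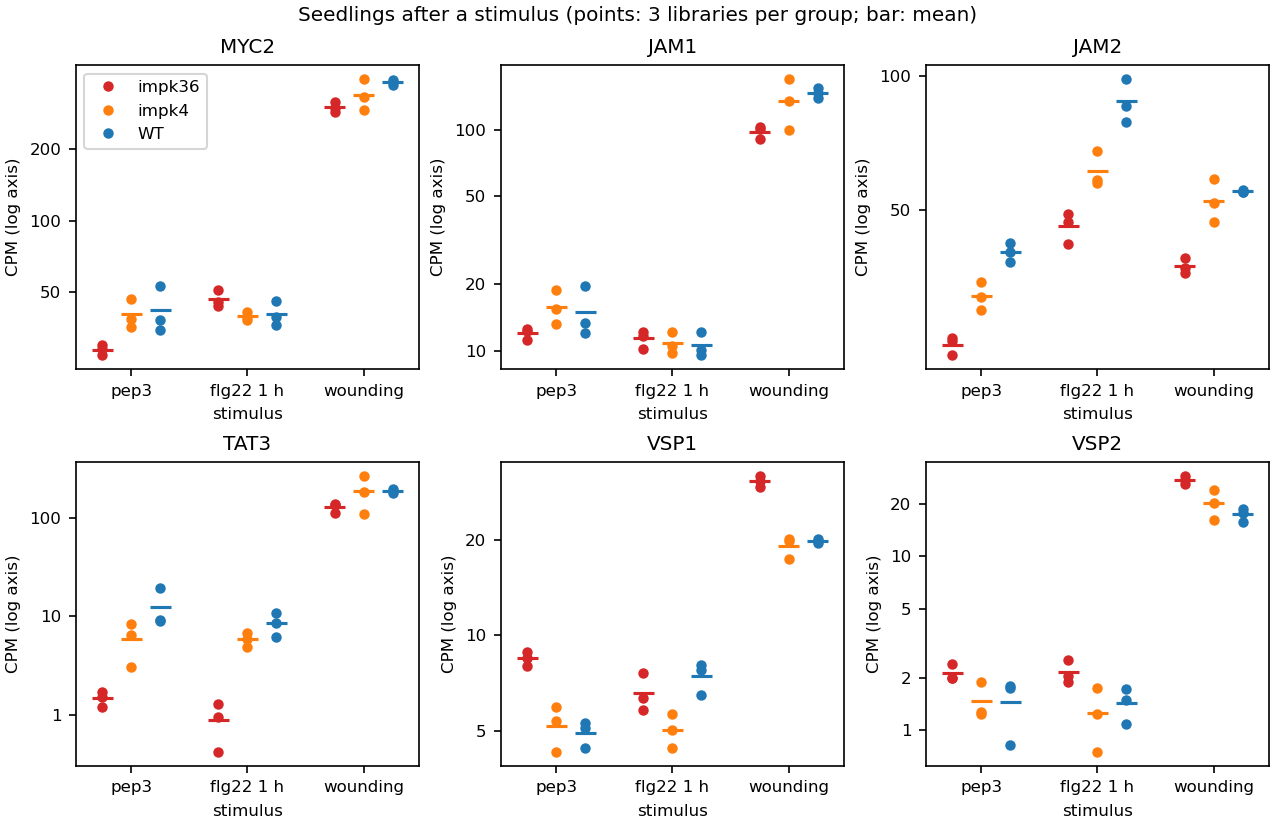
CPM (y axis, log scale) of 6 members after pep3, 1 h of flg22 and wounding (x axis) in impk36, impk4 and WT, with 3 libraries per group as points and their mean as a bar. JAM2 and TAT3 have their lowest means in impk36 after each stimulus, MYC2 and JAM1 separate impk36 from WT after wounding, with impk4 overlapping, and VSP1 is higher in impk36 after pep3 and wounding.

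After H2O2 2 members differed between impk36 and WT, where 11.0% of all genes did. Besides VSP2 this was JAM2, at 23.7, 27.9 and 22.3 CPM in impk36, against 34.7, 32.8 and 30.1 CPM in WT (-0.40 ± 0.08). After UVB 1 member passed, where 9.73% of all genes did. MYC2 was 47.3, 39.5 and 37.9 CPM in impk36, against 32.8, 33.3 and 35.6 CPM in WT (0.29 ± 0.08), and it did not pass without replicate 1 of impk36 (0.19, adjusted p = 0.102) or replicate 1 (adjusted p = 0.0841) or 2 (adjusted p = 0.0756) of WT. JAM2 was thus lower in impk36 with an adjusted p under 0.05 after pep3, flg22 at both times, wounding and H2O2, and was -0.22 after UVB (adjusted p = 0.0575), -0.07 after MeJA (adjusted p = 0.817) and -0.03 after ABA (adjusted p = 0.907). Unstimulated it was 19.8, 19.2 and 18.1 CPM in impk36 and 20.4, 23.1 and 22.7 CPM in WT of B2 (-0.22, adjusted p = 0.0759).

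The impk4 line differed from WT in fewer members. After flg22 for 1 h JAM2 was 57.5, 67.8 and 58.6 CPM in impk4, against 98.3, 79.0 and 85.7 CPM in WT (-0.52 ± 0.08), and VSP1 was 4.40, 5.62 and 5.02 CPM in impk4, against 7.77, 6.47 and 8.08 CPM in WT (-0.58 ± 0.13). With MYC3 (-0.18 ± 0.05) these were 3 members, where 38.2% of all genes passed, and none of the JAM2 or VSP1 libraries overlapped between lines. The response was smaller in impk4 for JAM2 (-0.48 ± 0.12) and VSP1 (-0.62 ± 0.20), where 10.5% of all genes passed, 4.6% as lower. The VSP1 call ended when any 1 of 7 of the 12 libraries was left out. At 30 min MYC2 was 117, 122 and 114 CPM in impk4, against 166, 153 and 145 CPM in WT (-0.40 ± 0.08), and its response was smaller (-0.44 ± 0.12), the one member where 3.21% of all genes passed, 2.23% as lower. That call also ended when any 1 of 7 libraries was left out. JAM2 at 30 min was 39.8, 46.5 and 46.0 CPM in impk4, against 59.7, 52.4 and 53.7 CPM in WT (-0.32 ± 0.08). TAT3 at 30 min was higher at 2.66, 0.954 and 1.88 CPM in impk4, against 0.199, 0.123 and 0.149 CPM in WT (3.54 ± 1.00), and did not pass without replicate 3 of WT (adjusted p = 0.0568). These were 3 members, where 25.6% of all genes passed.

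After pep3 JAM2 was 32.1, 29.9 and 34.5 CPM in impk4, against 40.4, 38.4 and 42.2 CPM in WT (-0.33 ± 0.08), and TAT3 6.55, 3.04 and 8.33 CPM in impk4, against 8.96, 9.26 and 19.5 CPM in WT (-1.08 ± 0.25), the 2 members that passed where 5.73% of all genes did. Neither passed when the 2 groups were fitted alone (adjusted p = 0.101 for JAM2 and 0.388 for TAT3) or without WT replicate 3 (adjusted p = 0.0503 and 0.183) or impk4 replicate 2 (adjusted p = 0.0721 and 0.0602). In the test of the pep3 response in impk4 minus that in WT 0 members passed, where 0.702% of all genes did (1 at an unadjusted p under 0.05, 0 by DESeq2).

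Wounded impk4 libraries were spread more widely than those of WT for MYC2, JAM1 and TAT3. MYC2 was 395, 292 and 331 CPM in impk4, against 382, 392 and 373 CPM in WT, JAM1 169, 99.7 and 135 CPM in impk4, against 139, 154 and 146 CPM in WT, and TAT3 269, 109.6 and 185 CPM in impk4, against 196, 179.6 and 189.6 CPM in WT. Replicate 1 of impk4 was the highest of the 6 libraries for each of these 3 genes and replicate 2 the lowest. None of the 9 members passed, where 2.41% of all genes did (2 at an unadjusted p under 0.05, 0 by DESeq2). Without replicate 1 of impk4 MYC2, MYC3 and JAM1 passed as lower. For the difference of wounding responses the counts were 0 members, 2 at an unadjusted p under 0.05 and 0 by DESeq2, where 8.01% of all genes passed.

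Unstimulated, impk4 and WT differed in 0 members in B1, where 0.0801% of all genes passed (0 at an unadjusted p under 0.05, 0 by DESeq2), and in VSP2 alone in B2, where 16.6% did. VSP2 there was 0.831, 0.912 and 0.900 CPM in impk4, against 0.366, 0.383 and 0.412 CPM in WT (1.16 ± 0.38, adjusted p = 0.0302), a call that ended without any 1 of the 6 libraries and with both VSP genes summed (0.19, adjusted p = 0.381). No member passed between impk4 and WT after MeJA, ABA, UVB or H2O2, where 0.113%, 0.259%, 0.696% and 1.19% of all genes did, with 1, 0, 0 and 1 members at an unadjusted p under 0.05 and 0 by DESeq2 in each. The tests of the MeJA and ABA responses between impk4 and WT, and of the ABA response between impk36 and WT, gave 0 members by either tool and 0 at an unadjusted p under 0.05, where 0.00471%, 0.0% and 0.0% of all genes passed.

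In adult shoots TAT3 set mpk4 apart from untreated impk4. It was 295, 390.0 and 304 CPM in mpk4, against 6.87, 10.8 and 3.55 CPM in impk4 at 0 h (5.55 ± 1.29 on the log2 scale). MYC4 was 14.7, 14.0 and 15.6 CPM in mpk4, against 82.6, 57.8 and 76.2 CPM in impk4 (-2.29 ± 0.12). JAM2 was 24.8, 25.1 and 24.3 CPM in mpk4, against 15.1, 14.0 and 14.1 CPM in impk4 (0.78 ± 0.13), and JAM3 47.4, 46.3 and 49.3 CPM in mpk4, against 30.4, 31.1 and 29.2 CPM in impk4 (0.66 ± 0.08). None of these 4 genes' groups overlapped, and they were the 4 of 8 members that passed, where 78.2% of all genes did, so the share lies below the background. The median of all genes in that comparison was 0.19. The labels give no time of harvest for mpk4, so line and time of harvest cannot be told apart. In mock-sprayed impk4 MYC4 was 24.7 to 27.2 CPM at 6 h and JAM2 16.5 to 24.2 CPM at 3 h, nearer to mpk4 than at 0 h. For each of the 4 genes the mpk4 libraries lay outside the range of all mock libraries. VSP1 was 3.89, 11.0 and 6.41 CPM in mpk4, against 0.356, 1.61 and 0.788 CPM in impk4 (2.95 ± 1.84, adjusted p = 0.150), without overlap, and it passed by DESeq2 (adjusted p = 0.0129) and when these 2 groups were fitted alone (adjusted p = 0.00425). VSP2 was 5.75, 13.8 and 11.9 CPM in mpk4 and 11.3, 16.7 and 14.5 CPM in impk4, with overlap, and JAM1 was 34.97, 42.4 and 35.4 CPM in mpk4 and 27.0, 55.3 and 29.0 CPM in impk4. Against mock-sprayed impk4 at 24 h the difference of VSP1 turned round (-5.32, adjusted p = 0.00108) and that of VSP2 was -5.95 (adjusted p = 2.33e-04), beside -0.44 against untreated impk4. In that mock group VSP1 was 811, 37.8 and 1.43 CPM and VSP2 1865, 63.2 and 7.85 CPM, so the groups overlapped for both genes and replicate 1 of mock was far above the rest. The ERF branch gave 4 higher and 0 lower of 6, with PR4 up by 3.47 ± 0.61 and ORA59 by 3.51 ± 0.90, and the JAZ genes gave 1 higher and 5 lower of 13, with JAZ3 at -2.25 ± 0.28. All 3 leaf markers were lower, summing to 8487 to 10031 CPM in mpk4 and 30568 to 37248 CPM in untreated impk4. The summed root markers were 53.2 to 55.8 CPM in mpk4 and 53.1 to 56.3 CPM in untreated impk4. Nearly all of that sum was SCR and SHR, whose medians over the adult groups were 39.6 and 10.3 CPM. PLT1, PLT2, WOX5, COBL9 and RHD6 were at 1.02 CPM or less in every adult library. The part of tissue composition in the members' values was not tested.

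In impk4 shoots sprayed with 3MBiP, 0 of 8 members passed at 3 h, 6 h and 12 h, where 0.279%, 6.08% and 14.2% of all genes did, with 1, 3 and 0 members at an unadjusted p under 0.05 and 0 by DESeq2 at each time. At 6 h 1266 of all genes passed, but 41 without replicate 1 of 3MBiP, 108 without replicate 3 of mock and 252 without replicate 2 of mock. At 24 h VSP1 and VSP2 passed, where 25.2% of all genes did. VSP1 was 7.88, 12.9 and 4.37 CPM with 3MBiP, against 811, 37.8 and 1.43 CPM with mock (-5.08 ± 1.31, adjusted p = 0.00683), and VSP2 was 29.9, 48.99 and 19.0 CPM with 3MBiP, against 1865, 63.2 and 7.85 CPM with mock (-4.31 ± 1.15, adjusted p = 0.00885). The groups overlapped for both genes, with replicate 3 of mock below every 3MBiP library and replicate 1 of mock far above them. Without that replicate 1 the log2 differences were -1.26 for VSP1 (adjusted p = 0.393) and -0.14 for VSP2 (adjusted p = 0.917), so 1 library carried both calls. Neither gene passed when only the 2 groups were fitted (adjusted p = 0.248 for VSP1 and 0.289 for VSP2). TAT3 was 11.8, 7.13 and 17.4 CPM with 3MBiP and 89.5, 14.6 and 0.636 CPM with mock, and JAM1 19.0, 21.1 and 21.3 CPM with 3MBiP and 53.2, 30.1 and 21.1 CPM with mock (-0.76, adjusted p = 0.0572). In both, replicate 1 was the highest mock library. Of the JAZ genes 6 of 13 were lower with 3MBiP at 24 h, of the synthesis genes 5 of 12 and of the ERF branch 4 of 6, in the same libraries. These list counts were not taken without replicate 1 of mock, so its part in them was not tested. The summed leaf markers were 44774 to 50553 CPM with 3MBiP and 42840 to 48384 CPM with mock, and the summed floral markers 9.42 to 10.8 CPM with 3MBiP and 2.60 to 3.11 CPM with mock, and their part in these values was not tested.

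Mock-sprayed impk4 shoots changed with time. In an F test over 0, 3, 6, 12 and 24 h, MYC3, MYC4, JAM2, VSP1, VSP2 and TAT3 passed, 6 of 8 where 84.5% of all genes did. MYC4 was 82.6, 57.8 and 76.2 CPM at 0 h, 32.1, 29.6 and 31.1 CPM at 3 h, 27.2, 26.0 and 24.7 CPM at 6 h, 30.8, 37.7 and 32.6 CPM at 12 h and 62.6, 67.7 and 54.2 CPM at 24 h. Its level was thus highest at 0 and 24 h, with every library at 3, 6 and 12 h below every library at those 2 times. The 0 h plants were untreated, so the spray and the time since 0 h cannot be told apart. VSP1 was 63.7, 22.0 and 8.56 CPM at 3 h, 11.2, 4.75 and 3.12 CPM at 6 h and 4.93, 9.08 and 24.7 CPM at 12 h, and TAT3 was 2.34, 17.3 and 0.630 CPM at 3 h, 1.54, 1.42 and 1.94 CPM at 6 h and 2.52, 5.60 and 117 CPM at 12 h. Replicate 3 stood far above the others for TAT3 at 12 h, and replicate 1 for VSP1 at 24 h. The test of whether the 3MBiP effect differed between the 4 times called 0 of 8 members, where 12.5% of all genes passed, with 3 at an unadjusted p under 0.05 and 2 by DESeq2.

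**Figure D4:**
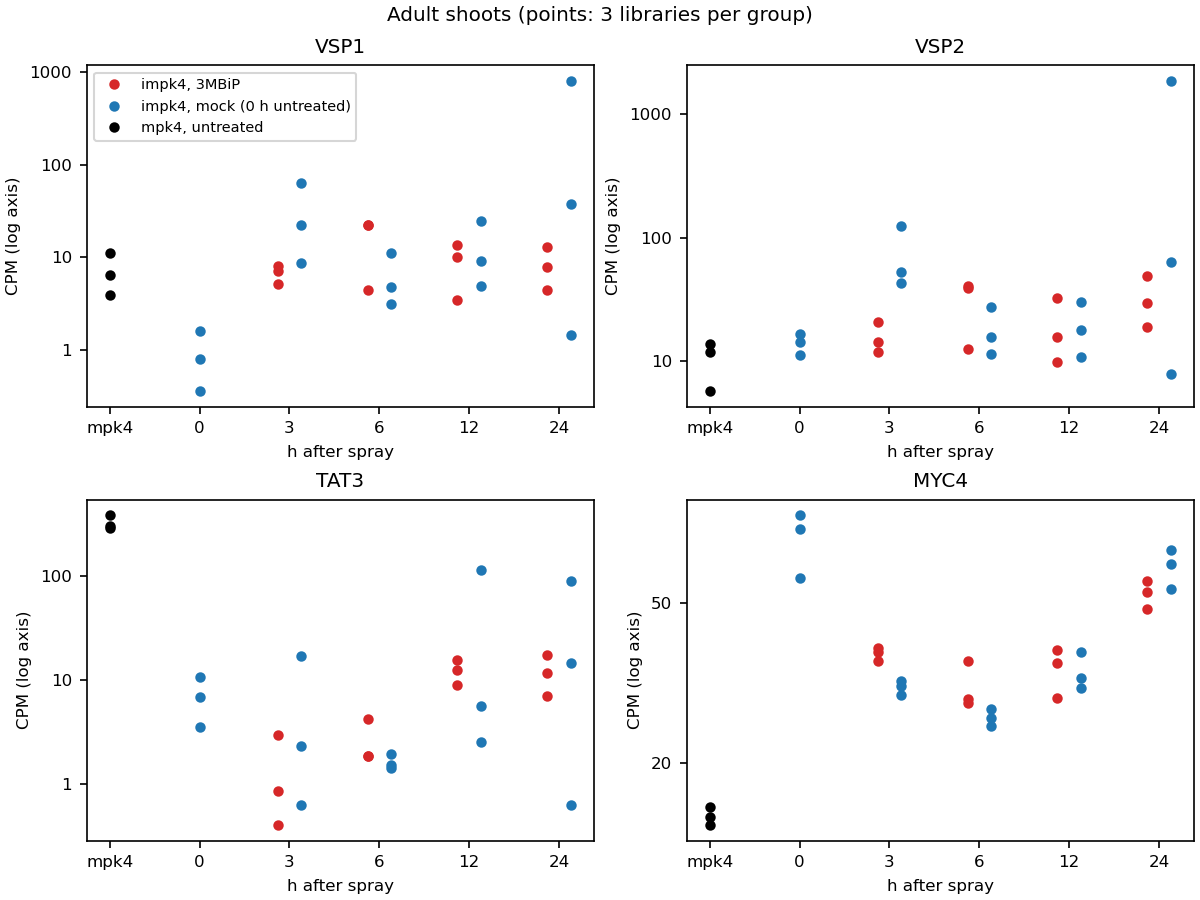
CPM (y axis, log scale) of VSP1, VSP2, TAT3 and MYC4 in adult shoots of untreated mpk4, of impk4 sprayed with 3MBiP and of mock-sprayed impk4 at 3 to 24 h, with untreated impk4 at 0 h (x axis), 3 libraries per group as points. A single mock library at 24 h stands far above the others for VSP1 and VSP2, TAT3 is highest in mpk4, and MYC4 is lowest there.

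Over all groups, with CPM scaled within each set, the members had narrow and wide ranges. Group means of JAM3 lay between 24.5 and 49.03 CPM, a 2.00-fold range, and those of MYC3 between 38.0 and 104 CPM. MYC4 ranged from 9.38 CPM in WT 30 min after 100 nM flg22 to 72.2 CPM in untreated adult impk4. JAM2 was highest in WT 60 min after 100 nM flg22 (111 CPM), then in WT 1 h after 2 nM flg22 (87.7 CPM). JAM1 was highest in the 3 MeJA groups (174 to 178 CPM) and the 3 wounding groups (98.0 to 147 CPM), and MYC2 had the same 6 groups on top (450.1 to 472 CPM with MeJA and 300.3 to 382 CPM with wounding). Neighbours within the MeJA triplet overlapped in their libraries for MYC2 and JAM1. TAT3 was highest in impk4 after MeJA (338 CPM), followed by adult mpk4 (329.5 CPM), whose libraries overlapped with it. VSP1 and VSP2 had their highest means in mock-sprayed adult impk4 at 24 h (283 and 645 CPM), which rest on 1 library, and next in impk36 after MeJA (100.2 and 103 CPM).

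Across the means of the 35 groups that count MYC2, as log2(CPM + 1) centred within each set, JAM1 had a Pearson r of 0.922 with MYC2 and JAM2 one of 0.392. VSP1 and VSP2 had an r of 0.980 with each other, and JAM1 had 0.932 with VSP2 and 0.895 with VSP1, beside 0.853 and 0.808 for MYC2. TAT3 had its highest r with MYC3 (0.859) among the factors, and 0.686 with JAM2. MYC2 had -0.10 with MYC4 and -0.07 with JAM3. These values describe group means that share controls, sets and lines, and the MeJA and wounding groups form a cluster apart, so no test was made.

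**Figure D5:**
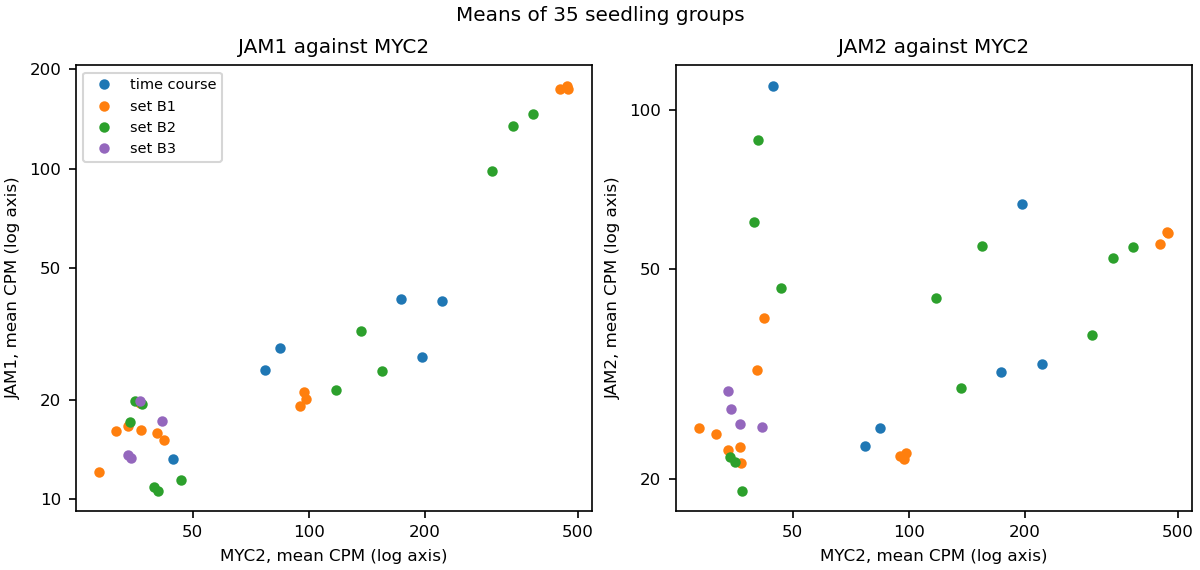
Mean CPM of JAM1 (left) and JAM2 (right) on the y axis against mean CPM of MYC2 on the x axis, both log scales, for the 35 seedling groups of the time course and sets B1 to B3, with 1 point per group coloured by set. JAM1 follows MYC2 with the MeJA and wounding groups at the upper right, while the groups with the highest JAM2, 1 h after flg22, have low MYC2.

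Among all loci at a mean of 1 CPM or more, those whose group means ran most like a member's were taken by Pearson r of log2(CPM + 1), centred within each set, over 49 groups, or over 35 for MYC2. For JAM1 they were GGPS6 (r = 0.971), TIFY10B, which is JAZ2 (0.969), and AT1G49520 (0.966), and for MYC2 AT1G61890 (0.948), AT5G44350 (0.935) and MYB95 (0.932). For VSP2 they were JR1 (0.953), TSA1 (0.948) and AAE12 (0.944), for VSP1 AT4G17470 (0.935), NATA1 (0.927) and AT5G23820 (0.916), and for TAT3 AT1G23850 (0.953), AT1G77420 (0.950) and AT1G06620 (0.946). JAM2 was nearest to AT2G30720 (0.915), RAP2.9 (0.909) and AT3G07890 (0.902), MYC3 to AT2G04400 (0.858), CYP83B1 (0.853) and AT2G05260 (0.850), MYC4 to MTO1 (0.884), AT1G72130 (0.861) and AT2G24580 (0.850), and JAM3 to AT2G10950 (0.858), AT4G15955 (0.855) and AT1G49360 (0.850). Over the 35 groups without B4 and the adult set other loci came first: AT1G14120, GGH1 and CYP702A6 for VSP1, AT1G52000, GGH1 and AT1G14120 for VSP2, and CYT1, AT3G51450 and AT5G53050 for TAT3. The 49 groups include mock at 24 h, whose VSP means rest on 1 library.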

How the data were processed

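RNA-seq libraries of Arabidopsis thaliana seedlings and adult shoots were read as the deposited raw read counts per locus, 1 table per library. Per the submitters' processing notes, the authors used TopHat and HTSeq on TAIR10, with versions not given in the sources used here. Lines that name no gene stayed out of library sizes. Members and gene lists were chosen with earlier results of these data known. Library values are given chiefly for MYC2, JAM1, VSP1, VSP2 and TAT3, with some groups as ranges or by their tests alone, other members by selected values, and pathway lists by counts per direction with up to 3 genes of smallest adjusted p. Counts were fitted per set with edgeR 4.0.16 (quasi-likelihood, robust, TMM scaling, low counts filtered by group; R 4.3.3), two-sided, with Benjamini-Hochberg adjustment over all genes tested in a comparison and a threshold of 0.05, for 56 comparisons that in part share control libraries. The fit was tested on simulated data. With 3 libraries against 3, an exact permutation test of 1 gene cannot go below 0.1. Alternatives were DESeq2 1.42.0, RLE size factors, no filter, only the groups compared, the replicate number as a block, VSP1 and VSP2 summed, another mpk4 control and leaving out each library. After the data were seen, likeness was also computed over 35 groups. Same-numbered libraries deviated together (r over 0.1 in all 3 pairs) in 3 comparisons: impk36 against WT after 1 h of flg22, flg22 at 1 h against 30 min, and impk4 against WT after UVB. Promoter and transcript sequences are RefSeq's on TAIR10.1. Depth was 13.9 M to 40.4 M counts per library. Values after ± are standard errors from the edgeR fit, the size of the log2 change over the square root of its F statistic. They include the spread between libraries. The 95% intervals of count ratios cover counting error only.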

Additional observations from a re-analysis of the deposited data

Results flagged for a closer look

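For 13 results the response to a stimulus differed between a line and WT by a test of the difference itself, the interaction of line and stimulus in edgeR at an adjusted p under 0.05. The values are log2 differences, the response in the line minus that in WT, and all 13 are negative. After pep3 in impk36 they were -0.79 for JAM2, -0.62 for JAM1 and -0.56 for MYC2 (16.1% of all genes passed, 8.48% as lower). After 30 min of flg22 in impk36 the value was -0.68 for JAM2 (6.59% of all genes passed, 4.14% as lower). After 1 h the values were -0.71 for JAM2, -1.28 for VSP2 and -0.33 for MYC3 (15.1% of all genes passed, 6.86% as lower). After wounding in impk36 they were -0.76 for JAM1, -0.45 for MYC2 and -0.32 for MYC3 (5.44% of all genes passed, 3.76% as lower). In impk4 the value was -0.44 for MYC2 after 30 min of flg22 (3.21% of all genes passed, 2.23% as lower). After 1 h the values were -0.48 for JAM2 and -0.62 for VSP1 (10.5% of all genes passed, 4.6% as lower). Leaving out 1 library ended the calls of JAM1 and MYC2 after pep3 in impk36 in most fits. The same held for VSP2 after 1 h of flg22 in impk36, and for MYC2 and VSP1 in impk4.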

How the results depend on the processing

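The number of members that passed moved as follows, the reported number after "against". Without a filter on low counts it was 1 against 0 at 5 min of the time course, 5 against 3 at 10 min, and 1 against 3 for the pep3 response in impk36. With DESeq2 it was 1 against 0 for impk36 after ABA, 2 against 1 and 4 against 2 for the responses to flg22 at 30 min and 1 h in impk4, and 2 against 0 for the adult 3MBiP effect over time. With the replicate block it was 1 against 0 for impk36 after ABA, 1 against 3 for the pep3 response in impk36, 4 against 2 for the 1 h flg22 response in impk4 and 4 against 1 for impk36 after UVB. With only the groups compared it was 1 against 0 for impk36 after MeJA, 0 against 2 for impk4 after pep3, 2 against 1 for unstimulated impk36 of B2, 6 against 3 for the wounding response in impk36, 2 against 1 and 1 against 2 for the flg22 responses at 30 min and 1 h in impk4, and, in adult shoots, 1 against 0 at 6 h and 0 against 2 at 24 h. For mpk4 against mock at 24 h it was 7 against 4, VSP1 was -5.32 against 2.95 and VSP2 -5.95 against -0.44, with 1 mock library (811 CPM for VSP1, the others 37.8 and 1.43) far above the rest. The causes were not tested.

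With 1 library left out the number ranged from 3 to 4 at 15 min of the time course, 0 to 1 for unstimulated impk36 of B1, 1 to 5 for the pep3 response in impk36, 0 to 2 for impk4 after pep3, 0 to 1 for its response, 0 to 0 for unstimulated impk4 of B2, 0 to 1 and 1 to 3 for the flg22 responses at 30 min and 1 h in impk4, 0 to 3 for impk4 after wounding, 0 to 2 for its response, 0 to 2 for impk36 after UVB, 0 to 4 in adult shoots at 24 h and 0 to 3 for the 3MBiP effect over time. A lone library left in a group is assumed to vary like the others.

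Over single members, 6066 values kept direction and side of the threshold, 138 lost the call, 88 gained one and 1 reversed. The block changed no member's call in the 3 comparisons with paired numbers. For impk4 after UVB, 292 of all genes tested passed with the block and 147 without it. Elsewhere samples share only a number. Counts over all genes moved by over 1.5 times in 11 of 56 comparisons with DESeq2, 0 of 56 with RLE size factors, 1 of 56 without a filter (734 against 201 at 5 min), 13 of 54 with only the groups compared 8 of 56 with the block and 81 of 425 fits without 1 library, among them adult 6 h (41 against 1266) and 5 min of the time course (39 against 201). TAT3 and VSP2 without a stimulus rest on few counts, which limits their fold changes.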

Other observations

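Of 4 floral markers, 3 were tested after wounding in WT and 2 were lower (53.6% of all genes passed), and 3 of 4 were lower in impk36 than in WT after pep3 (34.1% of all genes passed). SEP3 made up nearly all of their summed level in seedlings. Of 7 root markers 3 rose and 1 fell after wounding, and 1 rose and 1 fell after MeJA, where 53.6% and 32.2% of all genes passed, so both shares are near the background. In adult shoots 3 of 4 tested root markers were higher and 1 lower in mpk4 than in untreated impk4, where 78.2% of all genes passed. The summed level of the list was 53.2 to 55.8 CPM in mpk4 and 53.1 to 56.3 CPM in untreated impk4, nearly all of it SCR and SHR. BHLH14, a bHLH factor related to the JAM genes, was the one tested gene of its list in seedlings and was -4.04 ± 1.01 60 min after 100 nM flg22 and -1.60 ± 0.49 1 h after 2 nM flg22, both lower. MYC5, a relative of MYC2, was -4.45 ± 0.37 in mpk4 against untreated impk4.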
